A study of Mus musculus with 16 samples.

Results

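Inhibitory checkpoint receptors are surface proteins that dampen signals from the T cell receptor or from costimulation. The 7 receptor genes described here are a list of named genes, with no cutoff on their values, drawn up with earlier results of these data known. All 7 were present among the 16243 genes found in each of 9 matrices of CD8+ T cells. They are Pdcd1 (PD-1), Lag3 (LAG3), Havcr2 (TIM-3), Tigit (TIGIT), Ctla4 (CTLA-4), Cd160 (CD160), and Btla (BTLA). PD-1 binds PD-L1 and PD-L2 and recruits phosphatases to the T cell receptor, LAG3 binds MHC class II, and CTLA-4 competes with the costimulatory receptor CD28 for CD80 and CD86. TIGIT competes with CD226 for CD155, TIM-3 has several ligands including galectin-9, and CD160 and BTLA share the ligand HVEM. Activated T cells induce several of them for a short time, and T cells that meet antigen for long periods keep several at once, which is the setting in which the term exhaustion is used.

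The cells came from male wild-type mice that received a kidney from a donor with different histocompatibility genes and no immunosuppression, or from naive mice. Accepted grafts were DBA/2J kidneys in B6 recipients, analyzed with the recipient spleens at 1, 3, and 24 weeks after transplantation. Rejecting grafts and spleens, from a B6-to-DBA/2J model, were taken at 1 week. The sample labels name C57BL/6J as the strain of every sample, so the strain of the rejecting recipients rests on the study's description of the model. By that description donor and recipient strains change together with the outcome. Strain and outcome therefore cannot be told apart in any comparison of rejecting with accepted samples. Against accepted kidneys at 3 weeks, time after transplantation differs as well and cannot be told apart from them. Viable CD45+ cells were sorted and sequenced by a droplet 3′ method that counts unique molecular identifiers (UMIs), and the authors picked the CD8+ T cells from clusters. Accepted kidneys had 3, 5, and 3 libraries at 1, 3, and 24 weeks, as had the spleens. Rejecting kidneys had 2 libraries, rejecting spleens 3, and naive spleens 5. The study describes its mice as separate samples, so each library tag was taken as 1 mouse. The labels do not tie tags to mice, and p-values measure the spread between libraries.

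The 32 libraries held 72639 cells. Library totals ranged from 9756240 to 25960721 UMIs in accepted kidneys at 1 and 3 weeks and from 153266 to 794456 UMIs in rejecting spleens, and the 2 rejecting kidney libraries held 2377015 and 3081986 UMIs. Values are CPM, the UMIs of a gene scaled to a library total of 1000000. In these sums, fewer cells with a transcript and less transcript per cell cannot be told apart. Libraries of 5 conditions had CD8 UMIs (Cd8a or Cd8b1) in 83.5% to 100% of their cells. The share was 76.6% to 78.1% in rejecting kidneys, and 41.9% to 51.8% in accepted spleens at 1 and 3 weeks and in the kidneys labelled 24 weeks. In those 3 conditions 10.7% to 24.8% of cells had a Cd4 UMI. Rejecting spleens had a CD8 UMI in 100% of cells. No cell of the rejecting kidneys had a Cd4 UMI, against 4.16% to 6.41% in accepted kidneys at 1 week. The make-up of the matrices thus differed between rejecting and accepted samples, and this cannot be told apart from outcome either. Whether the cells were picked in the same way in both models is not stated. The 24-week labels also stood apart. The summed level of the 3 measured kidney parenchyma markers was 0 to 0.361 CPM in libraries labelled kidney and 2.36 to 4.17 CPM in those labelled spleen, whereas all 3 markers were higher in kidney than in spleen at 1 and 3 weeks. The 24-week values are therefore given by their labels and kept apart. Of 496 pairs of libraries compared, the largest share of cell barcodes in common was 1.79% of the smaller library.

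The sequence just before the start of transcription is shown for the receptors whose levels differed most between rejecting and accepted kidneys (Havcr2 and Tigit) and for Pdcd1. Each is the 250 bases upstream of the RefSeq start on GRCm38.p6, written 5′ to 3′ on the gene's strand, with matches to the AP-1 motif TGANTCA and the RUNX motif TGTGGT, on either strand, in capitals. The AP-1 motif is in 6.75% and the RUNX motif in 14% of 32851 promoters of that length. The T-box motif GGTGTGA, in 3.33% of them, was searched too and matched none of these 3 windows.
Pdcd1, chr1:94052554-94052803, minus strand: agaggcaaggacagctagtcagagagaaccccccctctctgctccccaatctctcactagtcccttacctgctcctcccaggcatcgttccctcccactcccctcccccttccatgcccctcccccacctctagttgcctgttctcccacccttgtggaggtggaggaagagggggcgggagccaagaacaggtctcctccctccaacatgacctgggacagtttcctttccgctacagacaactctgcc
Havcr2, chr11:46454681-46454930, plus strand: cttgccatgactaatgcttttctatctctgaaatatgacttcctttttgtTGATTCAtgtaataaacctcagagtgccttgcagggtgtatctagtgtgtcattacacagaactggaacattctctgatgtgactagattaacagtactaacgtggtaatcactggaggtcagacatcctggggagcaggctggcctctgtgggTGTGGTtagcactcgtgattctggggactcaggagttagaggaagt
Tigit, chr16:43664185-43664434, minus strand: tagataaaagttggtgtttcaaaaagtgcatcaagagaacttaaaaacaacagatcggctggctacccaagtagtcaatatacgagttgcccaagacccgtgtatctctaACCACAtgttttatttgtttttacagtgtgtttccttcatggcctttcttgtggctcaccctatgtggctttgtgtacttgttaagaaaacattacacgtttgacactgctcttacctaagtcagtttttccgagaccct
Havcr2 held both the AP-1 and the RUNX motif, Tigit held the RUNX motif, and Pdcd1 held neither. The NFAT core GGAAA, in 55.6% of promoters, and the E-box CANNTG, in 66.2%, were searched too and are not in capitals. The NFAT core matched 2 times in Pdcd1, 2 times in Tigit, and 0 times in Havcr2. The E-box matched 1 time in Tigit and 0 times in Pdcd1 and Havcr2. Windows of Ctla4, Cd160, and Btla were searched as well, and the RUNX motif was found in those of Cd160 and Btla and the T-box motif in 1 window of Cd160. A match is a description of the letters only. Pdcd1 and Ctla4 lie on chromosome 1, Tigit and Btla on chromosome 16, Lag3 on chromosome 6, Havcr2 on chromosome 11, and Cd160 on chromosome 3. In GENCODE release M21 of GRCm38 their introns span between 5236 bases (Lag3) and 29960 bases (Btla).

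Pdcd1, Lag3, Havcr2, and Tigit were at low levels in spleens at 1 and 3 weeks and in naive spleens, and rose in the graft (plot of CPM by library). In accepted kidneys at 1 week Pdcd1 was 239.8, 251, and 280 CPM. At 3 weeks it was 380.1, 629, 498, 453, and 573 CPM, so that every 3-week library stood above every 1-week library. Its level was 507 ± 98.0 CPM (SD, n = 5) at 3 weeks and 257 ± 20.6 CPM (n = 3) at 1 week, a log2 difference of 0.98 (SE 0.14, adjusted p = 1.99e-07). Here and throughout, an adjusted p comes from the quasi-likelihood test of edgeR, adjusted over all 12503 genes tested by the method of Benjamini and Hochberg.

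Lag3 was 85.2, 88.6, and 64.1 CPM at 1 week. At 3 weeks it was 180.4, 116, 131, 120.5, and 124 CPM, again without overlap. The log2 difference was 0.77 (SE 0.14, adjusted p = 1.2e-05). Tigit went from 11.9, 12.6, and 10.3 CPM to 18.3, 19.2, 18.0, 14.3, and 17.8 CPM, with all libraries apart. Its log2 difference was 0.60 (SE 0.15, adjusted p = 0.000726). Havcr2 was 17.5, 18.2, and 20.9 CPM at 1 week and 27.2, 31.98, 29.5, 19.8, and 26.2 CPM at 3 weeks. One library at 3 weeks lay within the range of 1 week, and the log2 difference was 0.51 (SE 0.15, adjusted p = 0.00242).

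Ctla4 and Btla went the other way. Ctla4 was 231, 235, and 246 CPM at 1 week and 126, 138, 122, 120.4, and 124 CPM at 3 weeks, a log2 difference of -0.91 (SE 0.11, adjusted p = 3.13e-09). Btla fell from 17.1, 12.6, and 11.3 CPM to 5.62, 5.33, 4.37, 4.95, and 5.37 CPM (log2 difference -1.40, SE 0.16, adjusted p = 1.29e-09). Neither gene's libraries overlapped between the times. Transcripts of regulatory and CD4 T cells were lower at 3 weeks as well. Cells with a Foxp3 UMI made up 3.24% to 3.61% at 1 week and 0.165% to 0.375% at 3 weeks, cells with a Cd4 UMI 4.16% to 6.41% and 1.01% to 1.39%, and the 3 regulatory markers (all present) summed to 45.2 to 73.1 CPM and 27.8 to 37.1 CPM. In cells with a CD8 UMI and without a Cd4 or Foxp3 UMI, the Ctla4 difference was -0.75 (adjusted p = 4.92e-06). Cd160 was 97.3, 88.3, and 69.3 CPM at 1 week and 99.5, 83.4, 87.6, 103, and 89.7 CPM at 3 weeks. These ranges overlapped, and the 95% interval of the log2 difference ran from -0.12 to 0.37 (adjusted p = 0.336, and a difference of -0.24 with adjusted p = 0.059 with TMM factors).

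Thus 4 of the 7 receptors rose and 2 fell, against a background in which 49.9% of all genes rose, 20.8% fell, and 70.7% were called in either direction. The median of all genes moved by 0.395 on the log2 scale between these times, so Pdcd1 rose by 0.59 and Lag3 by 0.37 beyond it. With TMM factors, which take this shift out, Pdcd1 (0.60) and Lag3 (0.39) were still called higher, whereas Havcr2 (0.13, adjusted p = 0.446) and Tigit (0.23, adjusted p = 0.196) were not called, leaving 2 receptors higher and 2 lower among 66.1% of genes called, 32.6% higher and 33.5% lower. Ctla4 (-1.29) and Btla (-1.77) stayed lower. The median shift rose with intron length. It was -0.08 in the tenth of genes with the shortest introns and 0.80 in the tenth with the longest. For genes of like intron length it was 0.02 for Lag3, 0.17 for Pdcd1, and 0.21 for Tigit. It was 0.26 for Havcr2 and Ctla4 and 0.42 for Cd160 and Btla. Its part in these values was not tested. Cells with an Mki67 or Top2a UMI made up 29.7% to 48.3% of the cells at 1 week and 10.7% to 15.7% at 3 weeks. Without them the same number of receptors, 6, was called.

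**Figure D1:**
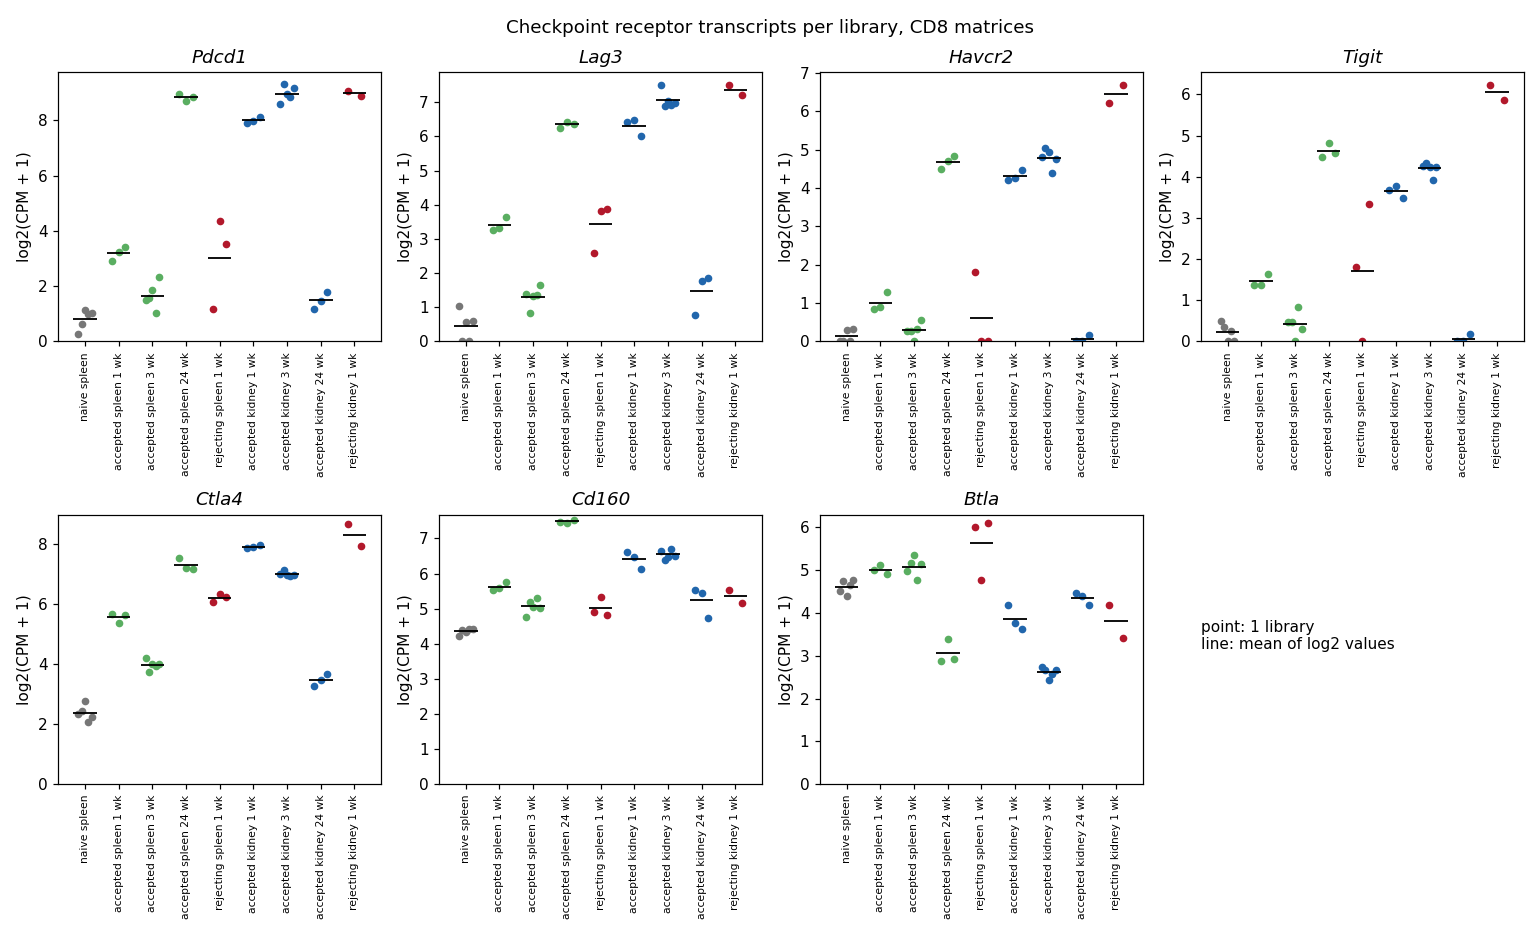
Level of each receptor transcript in each library on the log2(CPM + 1) scale, by condition, with 1 point per library and a line at the mean of the log2 values. Grey is naive spleen, green accepted spleen, blue accepted kidney, and red the rejecting model. Pdcd1, Lag3, Havcr2, and Tigit sit high in kidneys at 1 and 3 weeks, in rejecting kidneys, and in libraries labelled spleen at 24 weeks, and Btla is lowest in accepted kidneys at 3 weeks.

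Graft and spleen differed in all 7 receptors at both times. At 1 week 6 receptors were higher in kidney than in spleen and Btla was lower, while 27.2% of all genes were higher and 25.2% lower. Pdcd1 was 8.27 ± 1.63 CPM in spleens at 1 week (n = 3), and its log2 difference was 4.95 (SE 0.19, adjusted p = 3.52e-20). For Havcr2, at 1.02 ± 0.355 CPM in spleens, it was 4.15. Lag3 (3.02), Tigit (2.69), and Ctla4 (2.36) followed. A Cd4 UMI was present in 10.7% to 14.9% of the 1-week spleen cells. In cells with a CD8 UMI and without a Cd4 or Foxp3 UMI, Tigit was 11.1 CPM in kidneys and 0.63 CPM in spleens. Ctla4 was 210.5 and 22.3 CPM there, and Lag3 79.98 and 11.3 CPM. By these means Tigit differed most of the 3 and Lag3 least. Cd160 was 84.9 ± 14.3 CPM in kidneys and 48.5 ± 4.16 CPM in spleens, a log2 difference of only 0.80 (adjusted p = 7.38e-06). Btla was 31.2 ± 2.496 CPM in spleens, and its log2 difference was -1.199.

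At 3 weeks spleens held fewer receptor transcripts and the distance to the graft had grown. Pdcd1 was 1.79, 1.99, 2.59, 1.05, and 4.09 CPM in the spleen libraries. Over all libraries 26856 UMIs of Pdcd1 in kidneys stood against 52 in spleens, and the log2 difference was 7.77 (SE 0.20). Havcr2 was at 5 UMIs in all 5 spleens, so the ratio of the summed counts, 122-fold, has a 95% counting interval from 52.2 to 377. Tigit was at 8 UMIs, with a ratio of 49.7-fold (25.1 to 115). Here 60.8% of all genes were called, 41.6% higher in kidney and 19.2% lower, and 29.3% and 27.6% with TMM factors.

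The change of the graft-spleen difference from 1 to 3 weeks was tested as an interaction. All 7 receptors passed, 6 with a wider difference and Btla with a more negative one, where 26.8% of all genes were called up and 9.62% down, and 15% and 18.7% with TMM factors. The interaction was 3.45 for Lag3 (SE 0.33, adjusted p = 1.01e-09), 2.88 for Tigit, 2.83 for Pdcd1, 2.67 for Havcr2, 0.72 for Ctla4, 0.70 for Cd160, and -1.49 for Btla, all on the log2 scale. The spleen matrices at 1 and 3 weeks held cells with CD4 UMIs, so the fit was repeated on cells with a CD8 UMI and without a Cd4 or Foxp3 UMI. Ctla4 (0.26, adjusted p = 0.475) and Tigit (1.19, adjusted p = 0.232) then missed the threshold.

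Within the spleen, 6 receptors were lower at 3 weeks than at 1 week and Btla did not pass the test (33.2 ± 5.20 and 31.2 ± 2.496 CPM, log2 difference 0.09, 95% interval -0.20 to 0.39, and -0.03 with TMM factors). Of all genes 47.7% were called, 19% lower and 28.6% higher, and with TMM factors 45.1%, 24.2%, and 21%. Ctla4 changed from 46.1 ± 5.40 to 14.8 ± 1.92 CPM (log2 difference -1.64, adjusted p = 2.34e-11) and Cd160 from 48.5 to 32.7 CPM (-0.57, adjusted p = 0.000562). Cells with a Foxp3 UMI made up 3.67% to 6.13% at 1 week and 0.476% to 1.70% at 3 weeks. In the cells gated for CD8, Ctla4 was 22.3 ± 1.16 CPM at 1 week and 10.95 ± 4.81 CPM at 3 weeks. Havcr2 (adjusted p = 0.0776) and Tigit (adjusted p = 0.616) missed the threshold in the cells gated for CD8.

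All 7 receptors were higher in spleens 1 week after transplantation than in naive spleens, where 23.3% of all genes were higher, 28.1% lower, and 51.4% called in either direction. In naive spleens Pdcd1 was 0.211, 0.557, 1.198, 1.01, and 1.05 CPM, and Ctla4 was 4.22 ± 0.965 CPM (n = 5). The log2 difference was 3.46 for Ctla4 (SE 0.17, adjusted p = 1.53e-17) and 3.35 for Pdcd1 (SE 0.36). The 3 regulatory T cell markers summed to 48.1 to 51.97 CPM in the 1-week spleens and 2.83 to 5.27 CPM in naive spleens, and cells with a Foxp3 UMI made up 3.67% to 6.13% and 0% to 0.251%. In cells gated for CD8 and without a Cd4 or Foxp3 UMI the Ctla4 difference was 2.76 (adjusted p = 2.77e-11), and after thinning each cell to 1000 UMIs the share of 1-week spleen cells with a Ctla4 UMI was 4.12% in all cells and 2.17% in the gated cells. Btla, at 23.6 ± 2.57 CPM in naive spleens, differed by 0.40 (adjusted p = 0.0188) and by 0.14 (adjusted p = 0.467) in cells gated for CD8, and missed the threshold without accepted spleen library 2 or naive spleen library 3. Tigit had 4 UMIs and Havcr2 2 UMIs in all naive spleens, and the ratio for Havcr2 was 11.2-fold with a counting interval from 2.88 to 96.0. Tigit missed the threshold in the gated cells (adjusted p = 0.0807). B cell markers summed to 483 to 962 CPM in these 1-week spleens and 30.1 to 62.4 CPM in naive spleens, with all 5 markers present in both. Their part in the Btla values was not tested.

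Rejecting kidneys held more Tigit and Havcr2 than accepted kidneys. Tigit was 74.5 and 57.8 CPM in the rejecting libraries, above all accepted kidneys, which reached 19.2 CPM. The log2 difference was 2.51 (SE 0.19, adjusted p = 7.78e-14) against 1 week and 1.91 (SE 0.17, adjusted p = 6.07e-12) against 3 weeks. Havcr2 was 72.8 and 102 CPM, again above every accepted kidney library. It differed by 2.21 (SE 0.18, adjusted p = 6.61e-13) against 1 week and 1.71 (SE 0.16) against 3 weeks. Both calls held with TMM factors, at 1.80 for Tigit and 1.49 for Havcr2 against 1 week.

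Cd160 was lower in rejecting kidneys. The rejecting libraries held 45.4 and 34.7 CPM, below the lowest value of 69.3 CPM in kidneys accepted for 1 or 3 weeks, with a log2 difference of -1.09 (SE 0.18, adjusted p = 2.36e-06) against 1 week and -1.22 (SE 0.17) against 3 weeks. Pdcd1 was 529 and 472 CPM. It was higher than at 1 week by 0.96 (SE 0.17, adjusted p = 7.64e-06), but the difference from 3 weeks had a 95% interval from -0.35 to 0.31 on the log2 scale. Lag3 was 181 and 146 CPM and differed by 1.05 from 1 week (adjusted p = 3.87e-06) and by 0.28 from 3 weeks (95% interval -0.06 to 0.62, adjusted p = 0.139, and -0.06 with TMM factors). That difference from 3 weeks passed the threshold without the accepted kidney library 1 of 3 weeks (0.41, adjusted p = 0.0185) and in cells without an Mki67 or Top2a UMI (0.52, adjusted p = 0.00671).

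Ctla4 was 397 and 241 CPM in the rejecting libraries, so the lower of them lay inside the 231 to 246 CPM of accepted kidneys at 1 week. Its log2 difference from 1 week was 0.42 (SE 0.14, adjusted p = 0.0075), but it turned to -0.29 with TMM factors, -0.20 with DESeq2, and -0.09 once the shift of genes of like intron length was taken out, and was 0.02 without rejecting kidney library 1. Against 3 weeks Ctla4 was higher by 1.33 (SE 0.12, adjusted p = 1.78e-11), and by 1.00 with TMM factors. Btla, at 17.2 and 9.73 CPM, was higher than at 3 weeks by 1.36 (SE 0.25, adjusted p = 1.39e-05). Its difference from 1 week was -0.04 (95% interval -0.53 to 0.45), which became -0.75 with TMM factors (adjusted p = 0.00491).

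In sum, 5 receptors were called higher and 1 lower against 1 week, where 54% of all genes were higher, 13.8% lower, and 67.8% called in either direction. The median of all genes was 0.679 higher in rejection on the log2 scale, so that Pdcd1 stood 0.28 and Lag3 0.37 above it and Ctla4 0.26 below it. With TMM factors 2 receptors (Tigit and Havcr2) were higher and 2 (Cd160 and Btla) lower, among 30.6% of genes higher and 32% lower, and Pdcd1 (0.25, adjusted p = 0.207) and Lag3 (0.34, adjusted p = 0.1) were not called. Against 3 weeks 4 receptors were called higher and 1 lower, where 62.5% of genes were called, 43.8% higher and 18.7% lower, and with TMM factors the numbers were the same, with 31.7% and 30.9%. The shift rose with intron length, from -0.52 in the tenth of genes with the shortest introns to 1.98 in the tenth with the longest. It was -0.01 for genes like Lag3, 0.17 for genes like Pdcd1, and 0.34 for genes like Tigit. For genes like Havcr2 and Ctla4 it was 0.52, and for genes like Cd160 and Btla 0.80. With the shift removed, the differences from 1 week were 2.18 for Tigit and 1.69 for Havcr2. The 2 libraries also differed in dividing cells, with 26.0% and 68.1% of cells holding an Mki67 or Top2a UMI.

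**Figure D2:**
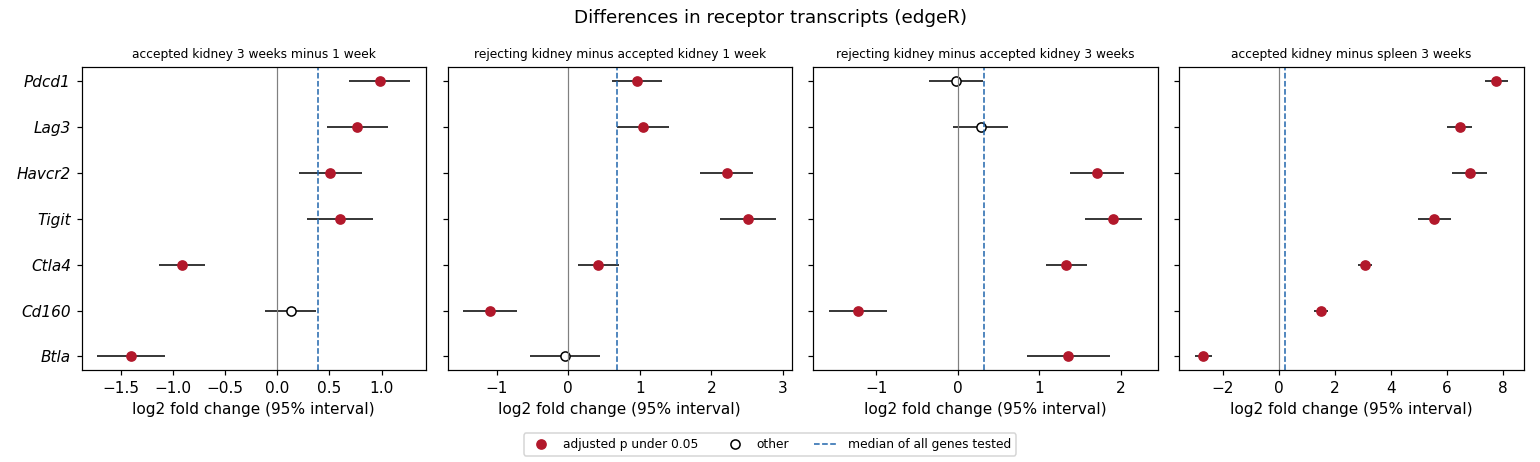
Log2 difference of each receptor in 4 comparisons, with a 95% interval computed from the statistic of the edgeR test. Filled points mark an adjusted p below 0.05, and a dashed line marks the median of all genes tested. Tigit and Havcr2 lie well above the dashed line in rejecting kidneys, Pdcd1 lies at -0.02 between rejecting kidneys and accepted kidneys of 3 weeks, and Btla lies far below it between kidney and spleen.

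The rejecting spleens were shallow, and 1 library held only 153266 UMIs. There Ctla4 was 65.5, 78.3, and 74.1 CPM, while Pdcd1 rested on 11 UMIs and Havcr2 on 2 UMIs in all. Rejecting kidneys were higher in 5 receptors and lower in Btla (52.4 ± 22.9 CPM in spleen, log2 difference -2.19, adjusted p = 1.01e-07), where 31.3% of all genes were called, 21.7% higher and 9.58% lower. Pdcd1 differed by 6.18 (SE 0.35), and the Havcr2 ratio of 71.9-fold had a counting interval from 19.8 to 596. Cd160 did not pass the test (95% interval -0.17 to 1.04). Whether the graft-spleen difference was larger in rejection than in acceptance at 1 week was tested as an interaction. Only Btla passed (-0.99, adjusted p = 0.0438), where 8.24% of all genes did. Of all genes 6.31% passed upward and 1.93% downward, and 3.11% and 3.6% with TMM factors. The Btla call was lost under several alternatives, with 24-week libraries out of the fit (adjusted p = 0.0529) among them. For Pdcd1 the interaction was 1.23 (95% interval 0.09 to 2.36, adjusted p = 0.171).

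The libraries labelled kidney at 24 weeks had almost none of 4 receptors. Pdcd1 was 1.26, 1.77, and 2.47 CPM, Lag3 0.722, 2.41, and 2.60 CPM, and Havcr2 and Tigit were each at 1 UMI in all 3 libraries. Compared with kidneys at 3 weeks, 6 receptors were lower and Btla higher, where 67.2% of all genes were called, 51.5% lower and 15.7% higher (59.8%, 31%, and 28.8% with TMM factors, with the same 7 receptors called). Pdcd1 was lower by 8.05 on the log2 scale (SE 0.25, adjusted p = 3.29e-24). The ratio of the summed counts was 524-fold for Havcr2, with a counting interval from 93.9 upward to 20710. Ctla4 was 10.1 ± 1.46 CPM (log2 difference -3.63) and Cd160 37.9 ± 10.97 CPM (-1.302). Btla was 19.4 ± 1.94 CPM, a log2 difference of 1.91 (adjusted p = 3.62e-12).

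The libraries labelled spleen at 24 weeks showed the opposite. Pdcd1 was 491, 415, and 459 CPM, Havcr2 24.8 ± 2.96 CPM, Tigit 23.8 ± 3.09 CPM, and Cd160 178 ± 3.82 CPM, the highest Cd160 of any condition and apart from every other library. Against spleens at 3 weeks 6 receptors were higher and Btla lower (7.47 ± 1.72 CPM), where 53.2% of all genes were called, 26.4% higher and 26.8% lower (27.8% higher with TMM factors). Between the labels at 24 weeks 6 receptors were lower in kidney and Btla higher, with 31.6% of genes lower and 14.4% higher. These differences rest on libraries whose parenchyma markers go against their labels. The comparisons without a 24-week group did not use them except for the shared estimate of the spread, and when they were left out of the fit the number of receptors called changed only for the rejecting interaction.

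Across conditions the order of levels differed between receptors. For Pdcd1, accepted kidneys at 3 weeks, rejecting kidneys, and spleens labelled 24 weeks came first with overlapping libraries (507, 501, and 455 CPM on average), and accepted kidneys at 1 week came next without overlap. For Tigit and Havcr2 rejecting kidneys came first and overlapped no other condition. For Ctla4 rejecting kidneys (319 CPM) and accepted kidneys at 1 week (237 CPM) overlapped each other, and the conditions below them did not overlap their neighbours. For Btla rejecting spleens (52.4 CPM) overlapped accepted spleens at 3 weeks (33.2 CPM), which overlapped those at 1 week. The kidneys accepted for 3 weeks (5.13 CPM) came last and apart.

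The share of cells with a UMI was compared at 1 depth, with each cell thinned to 1000 UMIs, because median UMIs per cell ranged from 1631 to 5420 between libraries. Between 0 and 313 cells of a condition were shallower and were left out. At 1 week 20.5% ± 1.99 of accepted kidney cells (SD, n = 3) had a Pdcd1 UMI, at 3 weeks 36.8% ± 5.46 (n = 5), and in rejecting kidneys 33.7% and 36.4%. For Lag3 the shares were 7.74% ± 1.37, 12.1% ± 1.93, and 14.7% and 16.6%. For Tigit they were 1.32% ± 0.228, 1.80% ± 0.298, and 6.41% and 7.14%. For Havcr2 they were 1.58% ± 0.163, 2.43% ± 0.478, and 4.95% and 8.94%. Without thinning the Pdcd1 share was 45.6% ± 7.08 at 1 week and 60.2% ± 4.41 at 3 weeks.

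Shares of 5 receptors did not overlap between accepted kidneys at 1 and 3 weeks, higher at 3 weeks for Pdcd1, Lag3, and Tigit and lower for Ctla4 (19.5% ± 1.29 and 11.2% ± 0.966) and Btla (1.39% ± 0.240 and 0.446% ± 0.0793). Over all genes 46.4% did not overlap. Rejecting kidneys stood apart from accepted kidneys at 1 week in 5 receptors, where 60.3% of all genes did, and Cd160 was the lower one, at 4.10% and 4.14% of cells against 6.95% ± 0.912. In the kidneys labelled 24 weeks 0 of 4033 cells had a Havcr2 or a Tigit UMI, which allows a share of cells with a UMI of up to 0.0744% if 3 cells are taken as the limit and 0.0914% by the exact 95% interval (counting error only).

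These shares were set beside cells that should lack the genes, at the same thinned depth. Such cells were chosen to hold no UMI of a T cell or CD8 marker, so their shares can understate stray T cell transcripts. Of 26925 thinned B-like cells of naive spleens (median 2696 UMIs before thinning), 0.00743% had a Pdcd1 UMI, 0.0186% a Lag3 UMI, and 0.0409% a Ctla4 UMI. In 5912 myeloid-like cells of the rejecting kidney (median 2455 UMIs) the shares were 0.355% for Pdcd1, 0.254% for Lag3, 0.118% for Tigit, and 0.541% for Ctla4, all far below those of the CD8+ T cells beside them. Havcr2 was different, since TIM-3 is also made by myeloid cells, and 16.4% of the myeloid-like cells had a UMI. The 6 myeloid markers summed to 297 to 302 CPM in the rejecting CD8 matrix with 1 of them at 0, to 171 to 263 CPM in accepted kidneys at 1 week, and to 195 to 310 CPM at 3 weeks. Their part in the Havcr2 difference was not tested. Likewise Btla is a B cell gene, found in 19.2% of the B-like cells. Tigit, Ctla4, and Foxp3 are shared with regulatory T cells. The 3 regulatory markers summed to 112 to 133 CPM in rejecting kidneys and 45.2 to 73.1 CPM in accepted kidneys at 1 week. For these markers the median shift of genes of like intron length was 1.03 (Il2ra), 0.34 (Foxp3), and 0.17 (Ikzf4). Cells with a Foxp3 UMI, counted without thinning, went the other way. They made up 2.11% to 2.52% in rejecting kidneys and 3.24% to 3.61% in accepted kidneys at 1 week. Median UMIs per cell of the libraries were 1631 to 2849 and 1951 to 3617. The Tigit difference was 2.45 on the log2 scale in cells with a CD8 UMI and without a Foxp3 or Cd4 UMI, but no cell of the rejecting kidneys had a Cd4 UMI, and regulatory cells without a captured Foxp3 UMI stay in that gate. Their part in the Tigit difference was not tested.

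**Figure D3:**
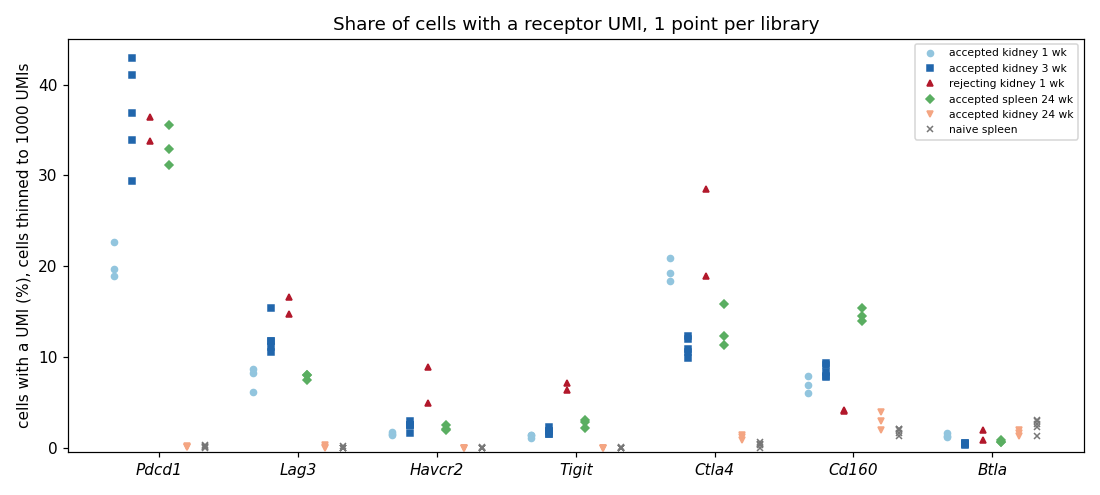
Share of cells with at least 1 UMI of each receptor after thinning each cell to 1000 UMIs, with 1 point per library in 6 conditions. The accepted kidneys at 3 weeks sit between 29.3% and 42.9% for Pdcd1, above the 19.0% to 22.7% at 1 week, and rejecting kidneys stand highest for Tigit and Havcr2.

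Cells with more than 1 receptor were counted next. None of the 7 receptors had a UMI in 52.0% to 54.6% of accepted kidney cells at 1 week, 38.9% to 47.9% at 3 weeks, and 31.9% to 38.2% in rejecting kidneys, against 94.4% to 95.9% in naive spleens. At least 2 receptors were seen in 11.1% ± 0.385 of cells at 1 week, 14.8% ± 1.41 at 3 weeks, and 22.7% and 25.6% in rejecting kidneys. Independent occurrence at the same shares would give 10.4%, 14.4%, and 23.3% on average. Up to 5 different receptors were found in a single thinned cell. In accepted kidneys at 3 weeks 65.9% of the cells with any receptor had Pdcd1. Another receptor was seen in 33.4% of Pdcd1 cells, 61.5% of Tigit cells, and 58.4% of Havcr2 cells. These 3 shares cannot be compared, because Pdcd1, the most frequent receptor, counts as another receptor for all cells but its own. Pdcd1 was in 39.95% of Tigit cells and 40.1% of Havcr2 cells, against 37.25% of all cells.

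**Figure D4:**
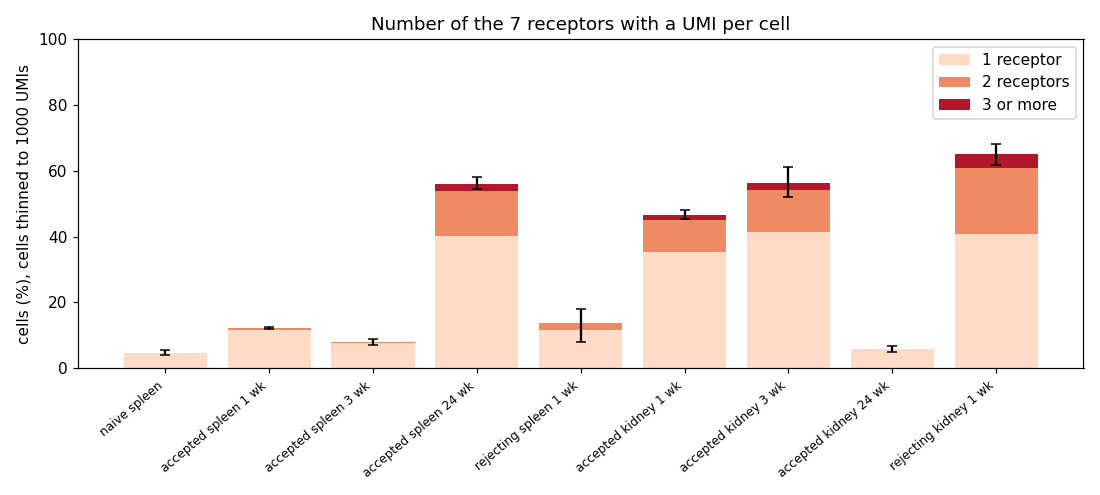
Mean share of cells with 1, 2, or at least 3 of the 7 receptors after thinning to 1000 UMIs, with bars reaching from the lowest to the highest library for any receptor. Rejecting kidneys reach highest, naive spleens and kidneys labelled 24 weeks are lowest.

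For each pair of receptors the cells with both were divided by the number that independence predicts within each library. Depth and cell state affect such ratios, so the same ratio with Cd3e, a subunit of the T cell receptor complex, is given beside them. It was 0.971 to 1.02 over the 7 receptors in accepted kidneys at 3 weeks, where 72.7% to 76.6% of the cells with a receptor had a Cd3e UMI at this depth. It was 0.96 to 1.22 in accepted kidneys at 1 week (41.9% to 53.4% of cells) and 0.974 to 1.04 in rejecting kidneys (82.2% to 87.5%). In libraries labelled spleen at 24 weeks it was 0.817 to 1.06 (48.4% to 63.9%). The larger the share of cells with a gene, the less room such a ratio has above 1. Ratios with Cd3e near 1 therefore cannot show that depth or cell state left the receptor ratios unmoved. At 3 weeks, of 19 pairs with at least 5 expected cells, 11 were above 1, with a median of 1.06. Pdcd1 with Ctla4 was seen in 1083 cells against 935 expected (1.16, above 1 in 5 of 5 libraries), Pdcd1 with Lag3 in 1107 against 982 (1.13, 5 of 5), Lag3 with Havcr2 in 89 against 65.3 (1.36, 5 of 5), and Havcr2 with Ctla4 in 86 against 61.2 (1.41, 5 of 5). Of the cells with Ctla4, 43.4% had Pdcd1, and of those with Pdcd1, 13.1% had Ctla4.

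At the depth used for these ratios, pairs with Cd160 or Btla made up all of the pairs below 1 at 3 weeks. With cells thinned to 2000 UMIs these pairs stayed below 1. Havcr2 with Tigit then fell below 1 as well, from 1.597 to 0.826 (18 cells against 21.8 expected). Without thinning, Lag3 with Cd160 (1.015) and Cd160 with Btla (1.06) were above 1, and the other pairs stayed below 1. The values that follow are for the first depth. Havcr2 with Cd160 was seen in 20 cells where 45.3 were expected (0.44), Ctla4 with Cd160 in 170 against 210 (0.81), and Pdcd1 with Cd160 in 615 against 694 (0.89), and none of the 5 libraries was above 1 in any of these pairs. Lag3 with Cd160 was 0.84 with 1 of 5 libraries above 1, whereas Tigit with Cd160 was 1.01. Lag3 with Btla was 0.67 (0 of 5 libraries above 1), Ctla4 with Btla 0.72 (2 of 5), Pdcd1 with Btla 0.83 (1 of 5), and Cd160 with Btla 0.60 (1 of 5), on 5 to 31 cells each. At 1 week Ctla4 with Cd160 was below 1 in each of 3 libraries (0.86), but Pdcd1 with Cd160 was above 1 in each (1.08, where the ratio with Cd3e was 1.08 for Pdcd1 and for Cd160), and Havcr2 with Cd160 was 1.33 with a library range from 0.67 to 1.46. In rejecting kidneys Havcr2 with Cd160 rested on 3 cells against 6.01 expected, and on 11 against 11.4 (0.964) with cells thinned to 2000 UMIs. Libraries labelled spleen at 24 weeks gave 0.42 for Havcr2 with Cd160, 0.65 for Ctla4 with Cd160, and 2.27 for Havcr2 with Ctla4, each on the same side of 1 in 3 of 3 libraries. In rejecting kidneys the 6 pairs among Pdcd1, Lag3, Havcr2, and Ctla4 ran from 0.955 (Havcr2 with Ctla4) to 1.14 (Pdcd1 with Havcr2). Tigit was below 1 in both libraries with Pdcd1 (0.912) and with Havcr2 (0.612, 6 cells against 9.81 expected). It was 1.10 with Lag3 and 1.09 with Ctla4, each above 1 in 1 of 2 libraries. With cells thinned to 2000 UMIs, Tigit was 1.03 with Pdcd1 and 1.065 with Havcr2 (18 cells against 16.9 expected). At that depth it was 0.939 with Lag3 and 1.13 with Ctla4. The pairs differ between conditions in values only, and those differences were not tested.

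**Figure D5:**
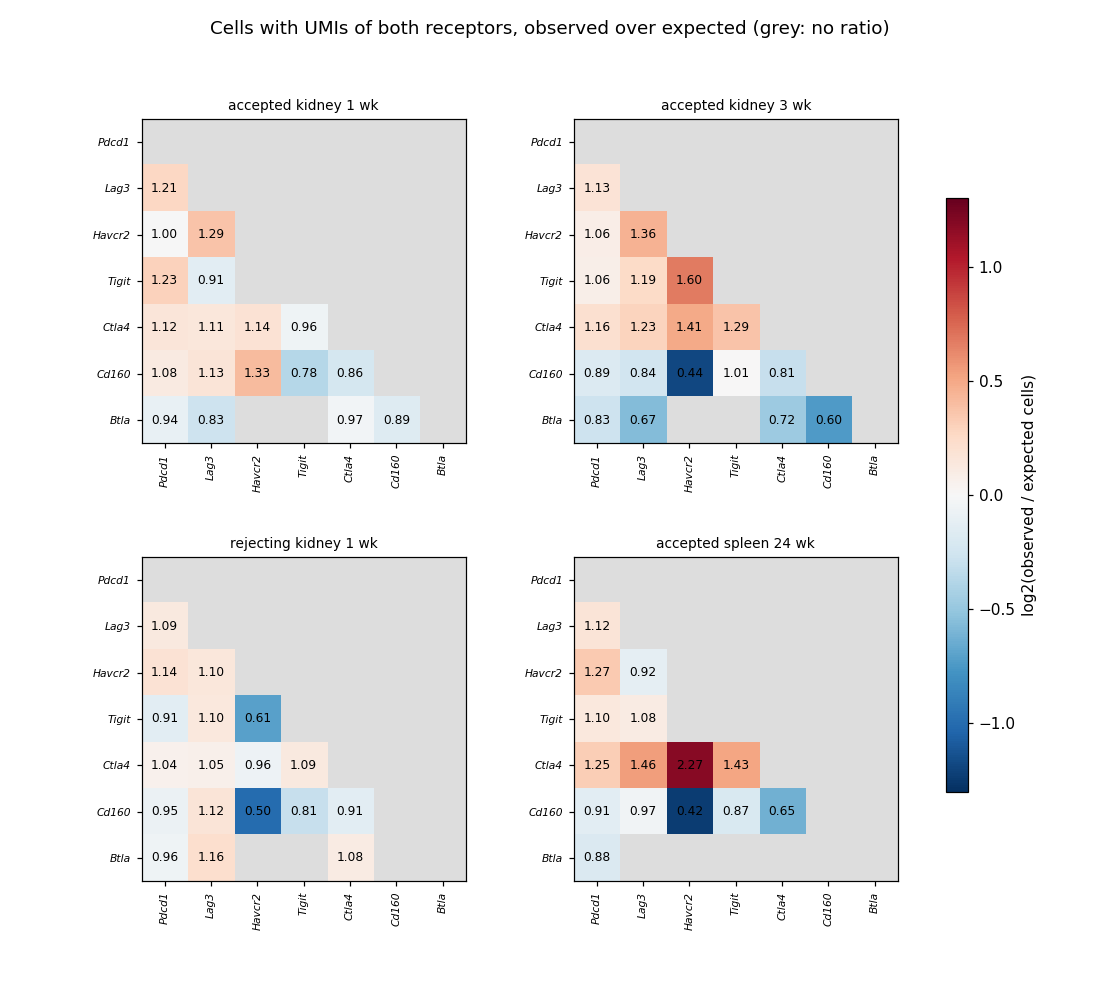
Observed over expected cells with UMIs of both receptors in 4 conditions (accepted kidneys of both early times, rejecting kidneys, and libraries labelled spleen at 24 weeks), colored on a log2 scale with the ratio printed. Grey marks pairs with under 5 expected cells. Ratios with Cd160 are below 1 for Havcr2 in 3 of the 4 panels, and Havcr2 with Ctla4 reaches 2.27 at 24 weeks. In rejecting kidneys the ratio of Havcr2 with Cd160 was 0.964 with cells thinned to 2000 UMIs.

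Cells with a receptor UMI were compared with the other cells of the same library for transcription factors and effector genes, at the thinned depth and without a test. In accepted kidneys at 3 weeks Pdcd1 cells held more Nr4a3 (1.59-fold), Nr4a2 (1.42-fold), and Nr4a1 (1.33-fold) than cells without, in 5 of 5 libraries. These nuclear receptors are induced by signals through the T cell receptor. Tox, a transcription factor of exhausted cells, was 1.14-fold higher, in 5 of 5 libraries. Tcf7, a transcription factor of memory and stem-like T cells, was lower (0.68-fold), as was Gzmb, a cytotoxic granule protease (0.73-fold), in each of the 5 libraries. At 1 week Gzmb was higher in Pdcd1 cells instead, 1.25-fold in 3 of 3 libraries.

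The other receptors had profiles of their own. Havcr2 cells at 1 week held more Ifng (2.47-fold) and Gzmb (2.00-fold) and less Il7r (0.17-fold), the interleukin-7 receptor of long-lived T cells, in 3 of 3 libraries, and at 3 weeks Ifng was 1.81-fold higher and Il7r 0.44-fold in 5 of 5. Cd160 cells at 3 weeks held more Gzmb (1.24-fold) and Tcf7 (2.24-fold) and less Nr4a1 (0.71-fold) and Ifng (0.78-fold), in 5 of 5 libraries each, with Tcf7 resting on 38 UMIs. In Ctla4 cells Nr4a1 was 1.69-fold and Tcf7 0.53-fold, the other way round. Btla cells at 1 week held more Tcf7 (2.46-fold) and Il7r (1.38-fold) and less Gzmb (0.46-fold), in 3 of 3. In rejecting kidneys Tigit cells and Ctla4 cells held more Foxp3, at 8.43-fold and 5.84-fold in 2 of 2 libraries, but on only 11 and 21 UMIs in those cells.

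Other genes of the checkpoint system were counted in the same fit, to be read against the 49.9% of all genes that rose and 20.8% that fell between accepted kidneys at 1 and 3 weeks (32.6% and 33.5% with TMM factors). Between accepted kidneys at 3 weeks and 1 week, 7 of 10 other inhibitory receptors rose and 3 fell, the same with TMM factors, with a median log2 difference of 1.24 against 0.395 for all genes. Cd200r1, the receptor of CD200 (5.57 to 55.4 CPM, log2 difference 3.34, adjusted p = 3.13e-18), and Cd244a (23.4 to 151 CPM, 2.71, adjusted p = 2.77e-15) rose most, while Klrg1 (-2.59) and Cd200 (-1.82) fell. Of 8 costimulatory receptors 5 fell, led by Tnfrsf4 (OX40, 106 to 8.46 CPM, -3.65, adjusted p = 1.14e-16), and Cd28 fell by 0.84. Only Cd226, the competitor of TIGIT, rose, by 0.73, where the median shift of genes of like intron length was 0.71. Of 11 signalling partners 5 rose and 2 fell (4 and 6 with TMM factors), with Inpp5d, a lipid phosphatase, at 1.26 and Sh2d1a, the adaptor SAP, at -1.305. Of 10 ligands measured 3 rose and 2 fell (2 and 3 with TMM factors). Among 15 transcription factors 7 rose and 6 fell (4 and 7 with TMM factors), led by Nr4a2 (1.32) and Tcf7 (-3.05), and all 5 genes of dividing cells fell.

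In rejecting kidneys compared with accepted kidneys at 1 week, 8 of 10 other inhibitory receptors were higher and 1 lower (6 and 2 with TMM factors), where 54% of all genes were higher and 13.8% lower (30.6% and 32% with TMM factors). Entpd1 (CD39) was 231 CPM in rejection and 27.5 CPM in acceptance, a log2 difference of 3.08 (adjusted p = 8.17e-19), and Lair1 differed by 2.12. Of 8 costimulatory receptors 4 were higher and 2 lower, but with TMM factors 0 were higher and 5 lower. Tnfrsf4 was lower under both, by 1.18 and by 1.88. Among 15 transcription factors 9 were higher and 3 lower (5 and 3 with TMM factors), with Bach2 at 3.43 and Tox at 2.78. Entpd1, Tox, and Bach2 are among the genes with the longest introns, whose median shift was 1.98. The shift was 1.03 for genes like Lair1 and -0.52 for genes like Tnfrsf4. Of 11 signalling partners 8 were higher and 1 lower (6 and 3 with TMM factors), and of 10 ligands 6 were higher and 1 lower (2 and 3 with TMM factors).

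Over all 32 libraries and 5345 genes averaging 20 CPM or more, the genes whose log2(CPM + 1) was most like a receptor's were found by Pearson's r, as a description, since the libraries share tissue, time, and depth. Pdcd1 was most like Gng2 (0.985), Efhd2 (0.980), and Tnfrsf1b (0.979), and Lag3 most like Gng2 (0.983), Gzmb (0.972), and Acot7 (0.969). Havcr2 was most like Aopep (0.985), Tigit most like Sla (0.958), Ctla4 most like Nrp1 (0.969), Cd160 most like Cebpb (0.944), and Btla most like St6gal1 (0.937).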

How the data were processed

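Raw UMI counts were deposited by the authors after mapping with Cell Ranger and filtering of cells, as 1 matrix per condition with library tags in the barcodes. The submitters' processing notes name the build mm10, and no version of Cell Ranger was given in the sources used here. The 9 matrices of CD8+ T cells were used, and the CD45+ matrices of rejecting kidney and naive spleen served for cells that should lack the genes. Those cells were called B-like or myeloid-like from at least 3 markers of their type with a UMI and no UMI of T cell markers or of the other type. Doublets were not called again.

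Counts were summed per library and tested by edgeR 4.0.16 (R 4.3.3) in 1 quasi-likelihood fit of 32 libraries, with plain library totals, the filterByExpr filter, and calls at an adjusted p under 0.05. The tool DESeq2 1.42.0, TMM factors, no filter, only the groups compared, gated cells, cells without dividing markers, and leaving out each library were alternatives. For rejecting samples, the median shift of genes in 10 groups of intron length was also taken out. The fit was tested on simulated data. Shares and pairs were counted on cells thinned to 1000 UMIs and given without a test. The 95% intervals of shares and of ratios of summed counts cover counting error only. Those of log2 differences used a t quantile and a standard error. That error was the size of the log2 difference divided by the square root of the F statistic of the edgeR test. Of 16243 gene symbols 98.4% matched GENCODE. The build in the counts and that of the coordinates carry the same assembly name, GRCm38. Promoters came from RefSeq, and 6 of the 7 members had an entry.

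The members and gene lists were chosen with earlier results of these data known. The genes named are the 7 members, from each list at most the 2 largest and 2 smallest log2 differences among the called genes, the 3 genes most like a member, and a fixed list of factors and effector genes for cells with and without a member.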

Additional observations from a re-analysis of the deposited data

Results flagged for a closer look

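The difference between graft and spleen changed from 1 to 3 weeks for every receptor, by a test of the interaction on the log2 scale: Lag3 3.45, Tigit 2.88, Pdcd1 2.83, Havcr2 2.67, Ctla4 0.72, Cd160 0.70, and Btla -1.49. In cells with a CD8 UMI and without a Cd4 or Foxp3 UMI the values were 0.26 for Ctla4 (adjusted p = 0.475 by edgeR) and 1.19 for Tigit (adjusted p = 0.232), and neither passed. The difference between graft and spleen was not the same in rejection as in acceptance at 1 week for Btla (an interaction of -0.99), a call that several alternatives did not keep. In the kidneys themselves Btla differed by -0.04 between rejection and acceptance at 1 week and did not pass the test.

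Of 41 groups of 5 libraries tested for a library far from the others, 7 had one. A chance rate of about 1 in 20 does not apply to them. Levels and shares of a gene came from the same libraries, and in some groups all other values were 0. In accepted kidneys at 3 weeks Lag3 was 180.4 CPM in library 1 and 116 to 131 CPM in the others, and its thinned share was 15.4% there and 10.5% to 11.8% elsewhere. Tigit was 14.3 CPM in library 4 there and 17.8 to 19.2 CPM in the others. The remaining 4 were shares in which 1 library had 1 to 3 cells with a UMI and the others none: Lag3 0.251% in naive spleen library 1, Havcr2 0.123% in naive spleen library 3, Havcr2 0.108% in accepted spleen library 4 of 3 weeks, and Tigit 0.134% in naive spleen library 2.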

How the results depend on the processing

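The count of receptors called, in either direction, in each of the other 12 comparisons stayed within 1.5 times its value under every alternative run. This count does not show the direction. With TMM factors, 5 higher and 1 lower became 2 and 2 for rejecting against accepted kidneys at 1 week. For accepted kidneys at 3 weeks against 1 week, 4 higher and 2 lower became 2 and 2. For the rejecting interaction with 1 receptor called, the count was 2 in cells gated for CD8 and 0 in cells without dividing markers, without the filter on low counts, with only the groups compared, and with the 24-week libraries out of the fit (chosen after seeing the data), and leaving out 1 library gave 0 to 1. The calls of all genes there fell from 1030 to 188 with only the groups compared and to 501 in gated cells, and to 488 without rejecting spleen library 1. For rejecting kidney against rejecting spleen they fell from 3912 to 1313 with only the groups compared. The log2 difference of Ctla4 between rejecting and accepted kidneys at 1 week reversed to -0.20 (DESeq2), -0.29 (TMM factors), and -0.0934 (intron length), and the cause was not tested. Without thinning 3 receptors in place of 5 had shares without overlap between accepted kidneys at 1 and 3 weeks. The unthinned Lag3 share was 21.34% ± 6.662 at 1 week and 25.87% ± 7.627 at 3 weeks (SD). For Tigit it was 3.831% ± 1.297 and 4.091% ± 0.8103. The share of all genes without overlap was counted on thinned cells only, so the unthinned count has no background to be read against. The share of single receptors moved by more than 1 SD in 86 of 112 cases with another depth or gate.

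Library numbers shared by kidney and spleen were checked as a pairing. The same-number correlations were 0.0824 to 0.326 at 1 week, 0.0525 to 0.481 at 3 weeks, and 0.0194 to 0.264 at 24 weeks. The highest correlations with another number were -0.202 to 0.21, -0.0749 to 0.151, and -0.0538 to 0.115 at these times. Some libraries were closest to their own number and others were not. Not every same-number value exceeded 0.1, so the numbers were not taken as pairs, which does not show that they are not. With the number as a replicate block, added after seeing the data, 7, 7, and 7 receptors were called between kidney and spleen at 1, 3, and 24 weeks and 6 in rejection, as without it. The interactions of the graft-spleen difference were not fitted with the block.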
